A study of Mus musculus and Acomys cahirinus with 18 samples.

Results

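The genes described here encode the non-collagenous part of the extracellular matrix: adhesive and matricellular glycoproteins, elastic fibre proteins, proteoglycans, lysyl oxidases and basement membrane proteins. The set holds 48 genes, taken by symbol from a list chosen with earlier results of these data known, and ordered here into 7 classes by known role. Of these, 41 were among the 6385 gene symbols in at least 1 of the authors' 4 deposited tables, and Omd, Prelp, Aspn, Acan, Ncan, Hapln1 and Nid2 were in none.

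As background, matricellular proteins sit between cells and fibres and change how cells adhere, elastic fibres are built from elastin on a scaffold of fibrillin microfibrils with fibulins and emilins, and small leucine-rich proteoglycans bind collagen fibrils and space them. Lysyl oxidases are copper enzymes that crosslink collagen and elastin. In an obstructed kidney the interstitium between the tubules is the usual place where such matrix builds up, made mainly by fibroblasts and pericytes.

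Kidney RNA was sequenced in 18 libraries, 3 in each of 6 groups, from adult males of 2 species. The mice were wild type C57BL/6 animals, labelled C57BL/6J in the protocol, and the spiny mice were wild type Acomys cahirinus with no strain given. In unilateral ureteral obstruction (UUO) the left ureter is closed, and kidneys were taken after perfusion with cold saline, 2 or 5 days later or from sham operated controls. Ages in the mouse groups were 7.0 to 14.0 weeks (sham), 10.1 weeks (day 2) and 10.1 to 14.0 weeks (day 5). In the Acomys groups they were 9.9 to 14.3 weeks (sham), 10.3 to 14.3 weeks (day 2) and 9.9 to 10.4 weeks (day 5).

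The deposited values are 4 tables of the authors' own comparisons, in which obstructed kidneys of 1 day were set against sham kidneys of the same species. They hold the log2 fold change, the mean expression as log2 CPM (logCPM, read counts scaled to the size of the library) and the false discovery rate (FDR, the adjusted p-value of the authors' edgeR comparison), and they list only entries with an FDR under 0.05. Values per library were not used here, so the spread between libraries enters only through the FDR, and the depth of each library is unknown. Absence from a table does not tell a steady gene from one that varied too much between libraries or was not tested. In Acomys, 644 of 1765 entries on day 2 and 1094 of 2500 on day 5 carry no gene symbol, against 0 in mouse. A gene called not listed in Acomys may therefore be among those entries. "Rose" and "fell" below mean listed with a positive or a negative fold change. In Acomys each listed gene of the set was carried by 1 numbered locus, 25 of 26 with a UniProt protein name in the locus name, and reads of close family members there may have been split in ways that the tables do not show.

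In mouse on day 2, 21 of the 48 genes rose (43.8%) and 4 fell. For comparison, the same table lists 9.79% of the 21900 protein-coding genes of the mouse RefSeq annotation as risen and 5.89% as fallen. On day 5, 34 rose (70.8%) and 2 fell, against 13.9% and 7.76% of all protein-coding genes. In Acomys 21 rose on day 2 (43.8%) and 26 on day 5 (54.2%), with 0 fallen on either day, against 4.9% risen and 0.187% fallen of all protein-coding genes on day 2, and 5.61% and 0.785% on day 5. The Acomys shares count only loci that the authors gave a mouse symbol, and the denominator is the annotation, not the genes that the authors tested. On Acomys day 2 this counted 1073 of 1587 risen and 41 of 178 fallen entries, and on day 5 1229 of 1964 and 172 of 536. The fallen share is thus understated more than the risen one. The set was chosen with earlier results known, so these shares describe it and do not test it. Counted in either direction, 15.7% (mouse day 2), 21.6% (mouse day 5), 5.09% (Acomys day 2) and 6.4% (Acomys day 5) of all protein-coding genes were listed. Of the 48 genes of the set, 25, 36, 21 and 26 were listed, in the same order. Among the genes of the set that rose, the median log2 fold change was 1.81 and 2.42 in mouse on days 2 and 5, against 1.70 and 1.89 over all risen entries of the authors' deposited tables. In Acomys it was 1.93 and 2.00, below the 2.15 and 2.27 of all risen entries in the authors' deposited tables. All-entry medians in Acomys, here and in the next sentence, include loci without a symbol, which the set cannot hold. With fallen genes included, the medians of the set were 1.59, 2.36, 1.93 and 2.00 and those of all entries 1.03, 1.14, 1.99 and 1.95 in the authors' deposited tables, where the mouse tables hold a larger share of fallen entries. These are bulk samples, so more cells of a type and more RNA per cell cannot be told apart.

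**Figure D1:**
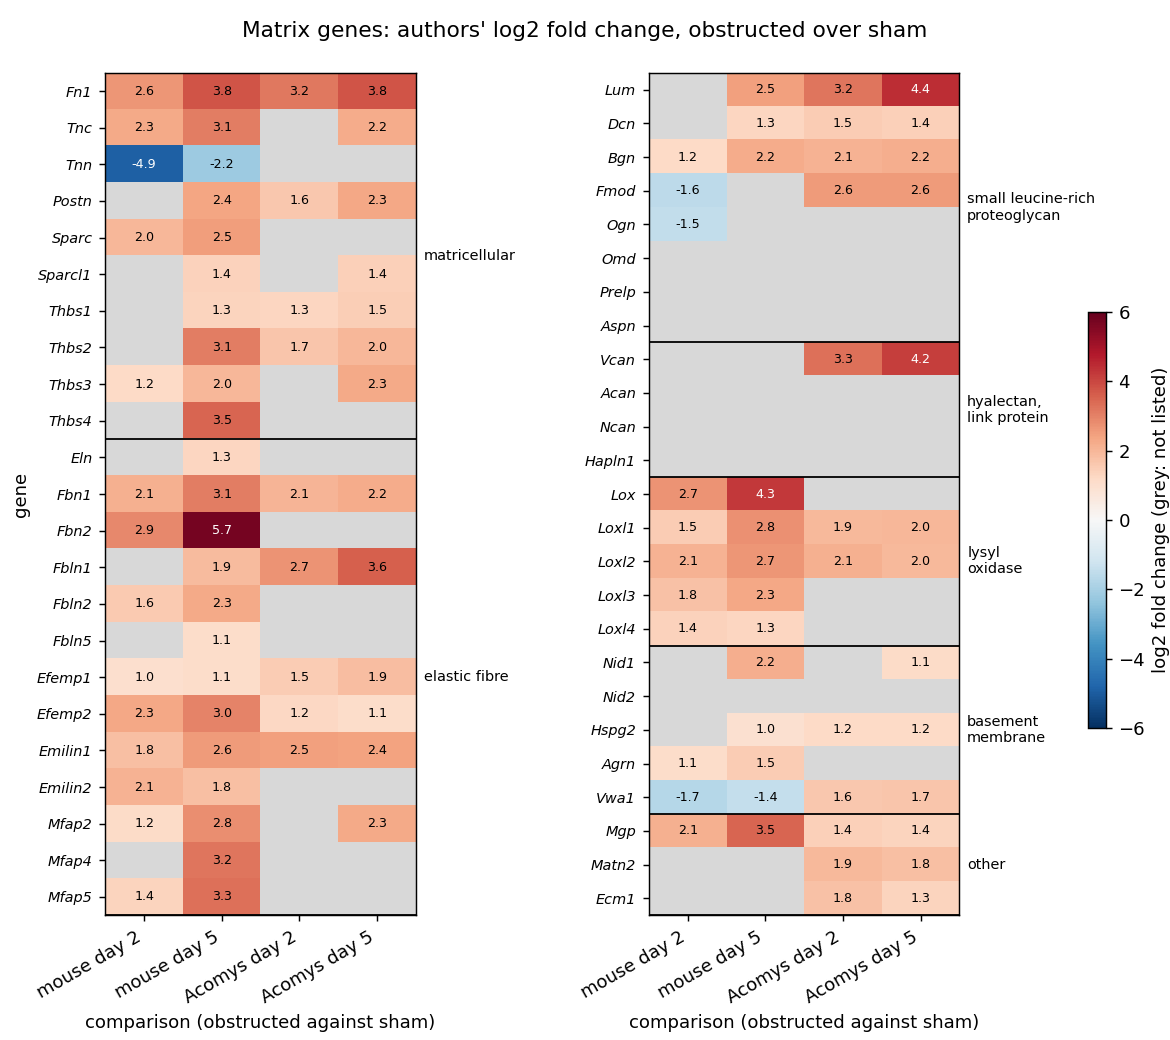
Authors' log2 fold change (colour and printed value) of the 48 matrix genes (rows, by class) in the 4 comparisons of obstructed with sham kidney (columns); grey cells were not listed at an FDR under 0.05. In mouse day 5 all 13 elastic fibre genes and all 5 lysyl oxidase genes are red, and blue cells are seen in mouse alone, for Tnn, Fmod, Ogn and Vwa1.

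To show the regulatory sequence beside genes with unlike patterns, the 250 bases before the RefSeq start site (build GRCm38.p6, 5′ to 3′ on the gene's strand) are printed for 3 genes. They are biglycan (Bgn), which rose in all 4 comparisons, its relative fibromodulin (Fmod), which fell in mouse and rose in Acomys, and thrombospondin 2 (Thbs2), which rose in 3 comparisons. The 3 were picked after their values were seen, and capitals mark a match to any of 4 motifs searched on both strands. The sequences are of mouse, and none is given for Acomys.
Bgn, chrX:73483351-73483600, plus strand: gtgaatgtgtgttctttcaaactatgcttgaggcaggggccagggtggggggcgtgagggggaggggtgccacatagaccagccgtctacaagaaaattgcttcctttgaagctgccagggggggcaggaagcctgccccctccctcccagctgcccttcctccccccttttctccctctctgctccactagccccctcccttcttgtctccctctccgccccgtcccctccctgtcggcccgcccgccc
Fmod, chr1:134037004-134037253, plus strand: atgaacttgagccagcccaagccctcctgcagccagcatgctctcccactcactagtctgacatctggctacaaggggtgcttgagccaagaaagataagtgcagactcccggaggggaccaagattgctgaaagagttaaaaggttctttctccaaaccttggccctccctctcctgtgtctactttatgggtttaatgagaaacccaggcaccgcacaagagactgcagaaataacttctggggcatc
Thbs2, chr17:14694263-14694512, minus strand: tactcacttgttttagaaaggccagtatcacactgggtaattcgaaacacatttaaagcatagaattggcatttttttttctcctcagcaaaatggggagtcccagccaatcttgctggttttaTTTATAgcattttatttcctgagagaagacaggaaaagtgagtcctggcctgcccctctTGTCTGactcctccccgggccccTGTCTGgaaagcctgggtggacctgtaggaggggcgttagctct
The motif searched for AP-1 was TGANTCA. For SMAD proteins it was CAGACA. For TEAD proteins it was GGAATG, and the TATA box was searched by the name's usual letters, TATAAA. The Thbs2 window held 2 matches to the SMAD letters and 1 to the TATA letters, each read on the opposite strand, and the Bgn and Fmod windows held 0 of any. Promoter entries existed for 31 of the 48 genes, in 40 windows, and 10 of these windows (25%) held the SMAD letters, against 17.1% of all 32851 windows. The AP-1 letters were in 2 windows (5%, against 6.75% of all), the TEAD letters in 7 (17.5% against 12.6%) and the TATA letters in 8 (20% against 12.4%). Overlapping windows of a gene were counted separately, such as those of Fbln1 for the SMAD letters and of Tnc for the TATA letters. The windows include genes that did not rise, such as Aspn, Ncan and Ogn, which hold the TATA letters. A match is a description of these letters and not a bound site.

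Fibronectin rose in every comparison. Fn1, which encodes the adhesive glycoprotein that cells use to assemble matrix, rose by 2.63 on day 2 (FDR 2.7e-06) and 3.79 on day 5 (FDR 1.3e-07) in mouse, per the authors' deposited tables. The Acomys values for Fn1 in the authors' deposited tables were 3.18 (FDR 6.8e-06) and 3.79 (FDR 3.9e-06). As folds these are 6.18 and 13.9 in mouse and 9.06 and 13.9 in Acomys, so the day 5 rise was of like size in both species, with a mouse minus Acomys difference of -0.001 (95% interval -1.74 to 1.74, adjusted p = 1). Differences between species here and below were tested with a two-sided normal approximation on errors rebuilt from the FDR, adjusted over all 729 symbols listed in both species on day 2 and 1011 on day 5.

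The tenascins split. Tnc, tenascin C, a matricellular protein of healing tissue, rose in mouse by 2.26 on day 2 (FDR 0.0012) and 3.06 on day 5 (FDR 6.8e-05), and in Acomys by 2.23 on day 5 (FDR 0.0278) but was not listed there on day 2, per the authors' deposited tables. At the expression of Tnc (within 0.5 logCPM) the smallest rise in the authors' deposited table of Acomys day 2 was 1.07, which is a rise that other genes reached and no limit for Tnc itself. Tnn, tenascin N, went the other way, at -4.92 on day 2 (FDR 0.000635) and -2.18 on day 5 (FDR 0.0345) in the authors' deposited tables of mouse, and was not listed in Acomys. That is a level 30.2-fold and 4.52-fold lower than in sham kidneys, from a mean logCPM of 2.06. In the same mouse tables, 2 of 5 adipocyte markers fell with it: Ucp1 stood at -5.56 on day 2 and -5.84 on day 5, and Cidea at -4.05 and -4.46, per the authors' deposited tables. The other 3, Adipoq, Plin1 and Lep, were not listed, and their part in the fall of Tnn was not tested.

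Periostin, Thbs1 and Thbs2 were listed on both days in Acomys and on day 5 alone in mouse. Postn, the matricellular protein periostin of activated fibroblasts, was not listed on mouse day 2 and rose by 2.39 on day 5 (FDR 0.000453), while in Acomys it rose by 1.61 (FDR 0.0108) and 2.30 (FDR 0.00059), per the authors' deposited tables. Thbs1, which can activate latent TGF-beta, followed the same pattern, with 1.31 on mouse day 5 against 1.30 and 1.47 on the 2 days in Acomys, per the authors' deposited tables. Thbs2, an inhibitor of vessel growth whose promoter is printed above, stood at 3.05 on mouse day 5 (FDR 2.4e-07) and at 1.66 (FDR 0.0397) and 2.01 (FDR 0.00911) in Acomys in the authors' deposited tables. For these genes the smallest rises listed on mouse day 2 at their expression were 0.83 (Postn), 0.76 (Thbs1) and 0.75 (Thbs2) in the authors' deposited table. Whether the rise came earlier in Acomys was not tested, since a gene without a value on mouse day 2 gives no difference to test.

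Thbs3 rose by 1.21 and 2.01 on the 2 mouse days and by 2.26 on Acomys day 5, and Thbs4 rose by 3.49 on mouse day 5 alone (FDR 0.000425, logCPM 0.74), per the authors' deposited tables. Sparc, osteonectin, a collagen-binding protein, rose by 1.98 and 2.51 in the authors' deposited tables of mouse (FDR 3.0e-05 and 2.1e-06) and was not listed in Acomys. Its relative Sparcl1 was listed on day 5 alone, risen by 1.36 in mouse and 1.42 in Acomys in the authors' deposited tables. The class of 10 adhesive and matricellular genes counts Fn1 with the others. In it, 9 rose and 1 fell on mouse day 5, against 4 and 1 on day 2, and in Acomys 4 rose on day 2 and 7 on day 5. Platelets carry several of these proteins, and 3 of 5 platelet markers rose in mouse, Pf4 by 3.45 on day 2 and 3.50 on day 5 among them in the authors' deposited tables, with 0 of 5 listed in Acomys. Their part in the rise of Sparc or the thrombospondins was not tested.

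All 13 elastic fibre genes rose in mouse by day 5, after 9 on day 2, and in Acomys 5 rose on day 2 and 6 on day 5. The steepest was Fbn2, the fibrillin of developing tissue, which went from 2.88 on day 2 (FDR 2.1e-05) to 5.73 on day 5 (FDR 6.2e-08) in the authors' deposited tables of mouse, or 7.38-fold to 53.3-fold. It was not listed in Acomys. Fbn1, the main fibrillin of adult microfibrils, rose by 2.15 and 3.08 in mouse and by 2.05 and 2.24 in Acomys, per the authors' deposited tables. The species difference of Fbn1 was 0.10 on day 2 (95% interval -1.19 to 1.38) and 0.84 on day 5 (-0.60 to 2.29), and did not pass the test (adjusted p = 0.969 and 0.704).

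Eln, which encodes elastin itself, rose by 1.27 on mouse day 5 (FDR 0.000545) in the authors' deposited table and was in none of the other tables. The microfibril-associated genes rose more: on mouse day 5 Mfap5 stood at 3.30, Mfap4 at 3.23 and Mfap2 at 2.81 in the authors' deposited table, after 1.36 for Mfap5 and 1.16 for Mfap2 on day 2. Of these 3, Mfap2 rose in Acomys, by 2.29 on day 5 (FDR 0.0109) in the authors' deposited table. Emilin1, a glycoprotein at the elastin surface, rose everywhere, by 1.81 and 2.57 in mouse and 2.46 and 2.40 in Acomys, and Emilin2 rose in mouse, by 2.08 and 1.81, per the authors' deposited tables.

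The fibulins differed among themselves. Efemp2, fibulin 4, which brings lysyl oxidase to elastin, rose by 2.31 (FDR 9.3e-08) and 2.96 (FDR 9.3e-09) in mouse and by 1.24 (FDR 0.00793) and 1.12 (FDR 0.0193) in Acomys, per the authors' deposited tables. Its day 5 rise was higher in mouse by 1.83 on the log2 scale (SE 0.57, 95% interval 0.71 to 2.96, adjusted p = 0.0285), and on day 2 by 1.06 (SE 0.52, adjusted p = 0.352), which did not pass. Fbln1, a fibronectin-binding fibulin, leaned the other way: it was not listed on mouse day 2 and rose by 1.90 on day 5 (FDR 1.2e-05), against 2.68 (FDR 0.000447) and 3.60 (FDR 6.9e-05) in Acomys, per the authors' deposited tables. The day 5 difference of Fbln1 was -1.70 (95% interval -3.30 to -0.10, adjusted p = 0.327) and did not pass. It passed when errors were rebuilt with a t value at 12 degrees of freedom and the difference was still tested as normal (adjusted p = 0.000809). That lenient setting passed 20.0% of all symbols on day 5. Efemp1, fibulin 3, rose by 1.02 and 1.10 in mouse and 1.54 and 1.87 in Acomys, per the authors' deposited tables. Fbln2 (1.59 and 2.27) and Fbln5 (1.09 on day 5) were listed in mouse and not in Acomys, per the authors' deposited tables, and no difference from Acomys could be tested for them.

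Lysyl oxidases rose as a whole family in mouse, 5 of 5 on both days. Lox, the founding enzyme, went from 2.69 on day 2 (FDR 4.3e-05) to 4.26 on day 5 (FDR 7.3e-07) in the authors' deposited tables, or 6.45-fold to 19.2-fold. Loxl1, which acts mainly on elastin, rose by 1.50 and 2.75 in mouse and by 1.94 and 1.99 in Acomys, and Loxl2, which acts on basement membrane collagen, by 2.08 and 2.66 in mouse and 2.11 and 1.96 in Acomys, per the authors' deposited tables. Loxl3 (1.76 and 2.33) and Loxl4 (1.39 and 1.30) rose in mouse in the authors' deposited tables. Lox, Loxl3 and Loxl4 were not listed in Acomys on either day, so their expression there is not known from these values. For the pair listed in both species the day 5 differences were 0.76 for Loxl1 (95% interval -0.66 to 2.19, adjusted p = 0.746) and 0.70 for Loxl2 (-0.64 to 2.04, adjusted p = 0.75).

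Of the 8 small leucine-rich proteoglycan genes, 1 rose and 2 fell on mouse day 2, while 4 rose and 0 fell on Acomys day 2. Fmod, fibromodulin, which binds collagen fibrils, fell by 1.55 on mouse day 2 (FDR 0.000674) and rose by 2.56 on both days in Acomys (FDR 0.000929 and 0.00096), per the authors' deposited tables. The day 2 difference was -4.11 (SE 0.74, 95% interval -5.56 to -2.66, adjusted p = 2.5e-06). For a gene listed in opposite directions a pass is likely from the start. Fmod was not listed on mouse day 5, and its mean logCPM was 2.93 in mouse and 1.44 in Acomys. Ogn, osteoglycin, also fell on mouse day 2, by 1.46 (FDR 0.00248) in the authors' deposited table, and was in no other table.

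Lum, the collagen-binding proteoglycan lumican, rose by 3.22 (FDR 0.000603) and 4.43 (FDR 8.3e-05) in Acomys and by 2.46 on mouse day 5 (FDR 0.000999), per the authors' deposited tables. The Acomys rise was 21.5-fold by day 5, and the mouse minus Acomys difference of -1.96 did not pass (95% interval -4.16 to 0.24, adjusted p = 0.476, and 0.0231 with errors rebuilt by a t value). Dcn, decorin, which binds collagen and TGF-beta, rose by 1.54 and 1.43 in Acomys and by 1.28 on mouse day 5, per the authors' deposited tables. Bgn, biglycan, rose by 1.19 and 2.24 in mouse and by 2.08 and 2.18 in Acomys in the authors' deposited tables, so the mouse value was below that of Acomys on day 2 and beside it on day 5. Its differences were -0.89 on day 2 (95% interval -1.89 to 0.12, adjusted p = 0.479, and 0.0168 with errors rebuilt by a t value) and 0.07 on day 5 (-1.07 to 1.20, adjusted p = 0.982).

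Of the large proteoglycans that bind hyaluronan, versican was the 1 gene listed. Vcan rose in Acomys by 3.32 on day 2 (FDR 0.00692) and 4.17 on day 5 (FDR 0.00144), or 9.98-fold and 18.0-fold, per the authors' deposited tables. In mouse it was not listed on either day, so no difference could be tested. Its cartilage and brain relatives Acan and Ncan, and the link protein gene Hapln1, were in no table.

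Among basement membrane genes Vwa1 moved in opposite directions in the 2 species. Vwa1, which encodes a small protein that binds perlecan, fell in mouse by 1.72 (FDR 3.0e-06) and 1.42 (FDR 1.1e-05) and rose in Acomys by 1.61 (FDR 0.00242) and 1.66 (FDR 0.00176), per the authors' deposited tables. The differences of -3.33 on day 2 (SE 0.53, adjusted p = 6.2e-08) and -3.08 on day 5 (SE 0.52, adjusted p = 6.1e-07) passed the test on both days, as opposite listings are likely to. Perlecan itself, Hspg2, the heparan sulfate proteoglycan of basement membranes, rose by 0.96 on mouse day 5 and by 1.20 and 1.19 in Acomys, per the authors' deposited tables. Nid1, nidogen 1, which links laminin to collagen IV, rose on day 5 in both species, by 2.19 in mouse and 1.15 in Acomys, and Agrn, agrin, rose in mouse by 1.08 and 1.52, per the authors' deposited tables. Endothelial cells make much of this class, and of 6 endothelial markers only Kdr was listed on mouse day 2 (-1.16) and only Cdh5 on mouse day 5 (0.95), with 0 in Acomys, per the authors' deposited tables. Vwf, an endothelial gene outside that list, rose on Acomys day 5 (1.21, FDR 0.011) in the authors' deposited table. Their part was not tested.

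Of the remaining genes, Mgp, matrix Gla protein, an inhibitor of calcification, rose by 2.11 and 3.50 in mouse and by 1.44 and 1.36 in Acomys, per the authors' deposited tables. Its day 5 difference of 2.15 had a 95% interval of 0.61 to 3.69 and did not pass after adjustment (adjusted p = 0.105, and 0.000116 with errors rebuilt by a t value). Matn2, a filament-forming matrilin, and Ecm1, extracellular matrix protein 1, were listed in Acomys alone, Matn2 at 1.93 and 1.81 and Ecm1 at 1.76 and 1.33 in the authors' deposited tables. Over the whole set 9 genes rose in all 4 comparisons: Fn1, Fbn1, Efemp1, Efemp2, Emilin1, Bgn, Loxl1, Loxl2 and Mgp. The share of all symbols that rose in all 4 was not counted, so this number describes the set alone. Another 15 genes of the set were listed in mouse only and 3 in Acomys only (36.6% and 7.32% of the 41 listed). Of all 6385 symbols, 74.0% and 7.42% were.

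For genes listed on both days of a species, group levels could be calculated back from the mean logCPM and both fold changes, on the assumption that the mean weights the 9 libraries of a species equally. These levels in CPM are not corrected for gene length and carry no error. On that scale Fn1 in mouse stood at 28.5 CPM in sham kidneys, 176 on day 2 and 394 on day 5, and in Acomys at 38.6, 349.9 and 536. Mgp in mouse went from 37.9 to 164 and 429 CPM, and in Acomys from 109 to 296 and 279. The mouse level of Fn1 and Mgp thus rose from group to group, while Mgp in Acomys was about level from day 2 to day 5. Lox in mouse went from 1.90 to 12.2 and 36.3 CPM and Fbn2 from 0.32 to 2.38 and 17.2, so both were low in sham kidneys. Vcan in Acomys went from 1.27 to 12.7 and 22.8 CPM, and Lum from 0.95 to 8.87 and 20.5. Vwa1 in mouse fell from 93.2 to 28.2 and 34.8 CPM, and in Acomys rose from 7.46 to 22.8 and 23.6.

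**Figure D2:**
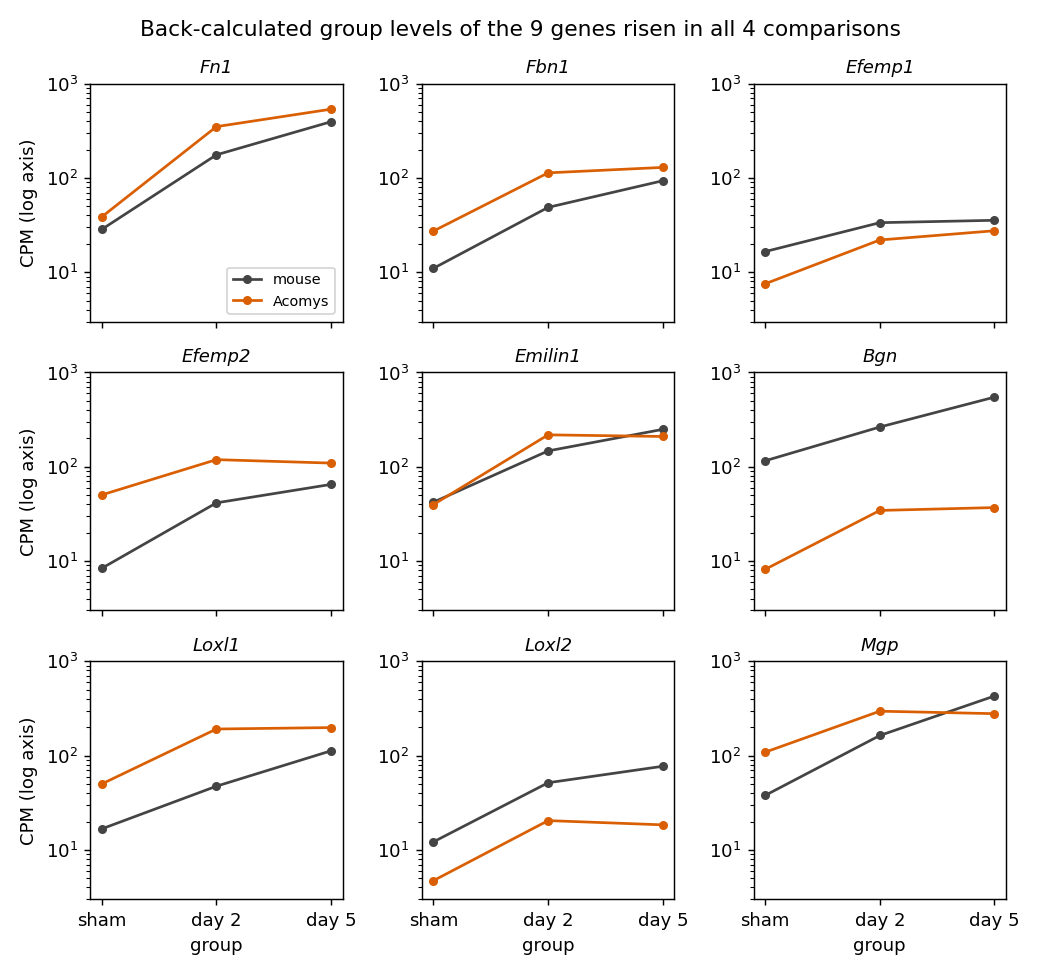
Back-calculated group level in CPM (log axis) of the 9 genes that rose in all 4 comparisons, in sham, day 2 and day 5 kidneys of mouse (grey) and Acomys (orange), with no error available. Within a species the lines show the course over groups, such as Mgp in mouse from 37.9 to 429 CPM; heights are not comparable between species, whose transcript references differ.

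In mouse the rises were larger on day 5 than on day 2. Of the 21 genes that rose on both days, 19 had a higher fold change on day 5, with a median difference of 0.80, where 64.8% of all 2006 symbols that rose on both days were higher, with a median of 0.22. The largest differences were those of Fbn2 (2.85), Mfap5 (1.94), Mfap2 (1.65) and Lox (1.57), and the exceptions were Emilin2 (-0.28) and Loxl4 (-0.09). Another 13 genes rose on mouse day 5 and were not listed on day 2, among them Thbs2, Thbs4 and Mfap4 with values above 3. The share of all symbols listed on day 5 only was not counted. Over all entries of the authors' deposited tables, 2282 rose on mouse day 2 and 3269 on day 5.

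In Acomys the day 5 values were close to those of day 2. Of 21 genes that rose on both days 13 were higher on day 5, with a median difference of 0.05, where 56.3% of 833 symbols were higher with a median of 0.07. Lum (1.21), Fbln1 (0.92), Vcan (0.85), Postn (0.70) and Fn1 (0.62) had the largest differences and Ecm1 the lowest (-0.42). Another 5 genes, Tnc, Sparcl1, Thbs3, Mfap2 and Nid1, were listed on day 5 only, again without a share of all symbols beside them. Over all entries, 1587 rose on Acomys day 2 and 1964 on day 5 in the authors' deposited tables. Both days of a species share its sham libraries and the tables give no covariance, so neither the change between days nor its difference between species was tested.

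**Figure D3:**
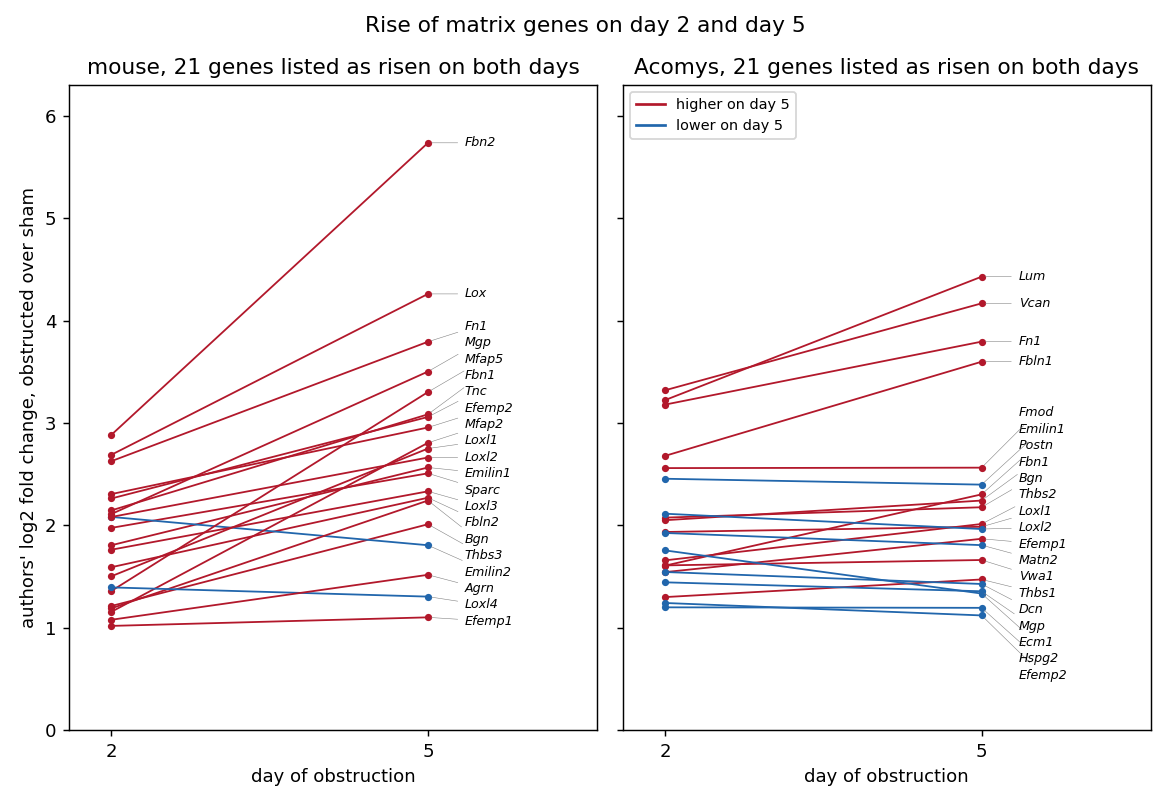
Authors' log2 fold change on day 2 and day 5 of obstruction for the genes that rose on both days, mouse on the left and Acomys on the right (21 genes each); red lines are higher on day 5, blue lines lower. In mouse 19 of 21 lines go up, by a median of 0.80, and in Acomys 13 of 21, by a median of 0.05.

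On day 2, 11 genes had a value in both species, 9 with the same direction, and the 2 opposite ones, Fmod and Vwa1, passed the test of the difference on the Acomys side (18.2% of the 11, where 5.08% of all symbols passed, 1.1% with the higher value in mouse and 3.98% in Acomys). A gene enters this test only when listed in both species, so opposite directions make a pass likely from the start. For Fmod and Vwa1 the pass thus adds little to their opposite listing. Over all symbols with a value in both species, 3.70% had opposite directions on day 2 and 3.46% on day 5. On day 5, 22 genes had a value in both, 21 with the same direction, and Efemp2 on the mouse side and Vwa1 on the Acomys side passed (9.09%, where 5.14% of all symbols passed, 1.88% higher in mouse and 3.26% in Acomys). The median difference was -0.52 on day 2 and 0.07 on day 5, against -0.20 and 0.18 over all symbols listed in both species. A normal in place of a t distribution makes the rebuilt errors wide. The standard errors of these differences ran from 0.48 to 1.12, so a difference that did not pass is not shown to be absent. Genes with a value in 1 species only could not be tested. On day 2 these were 14 in mouse and 10 in Acomys (40.0% and 28.6% of the 35 listed), where 74.0% and 9.10% of 4307 symbols were, and on day 5 they were 14 and 4 (35.0% and 10.0% of 40), where 75.6% and 6.86% of 5760 symbols were.

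**Figure D4:**
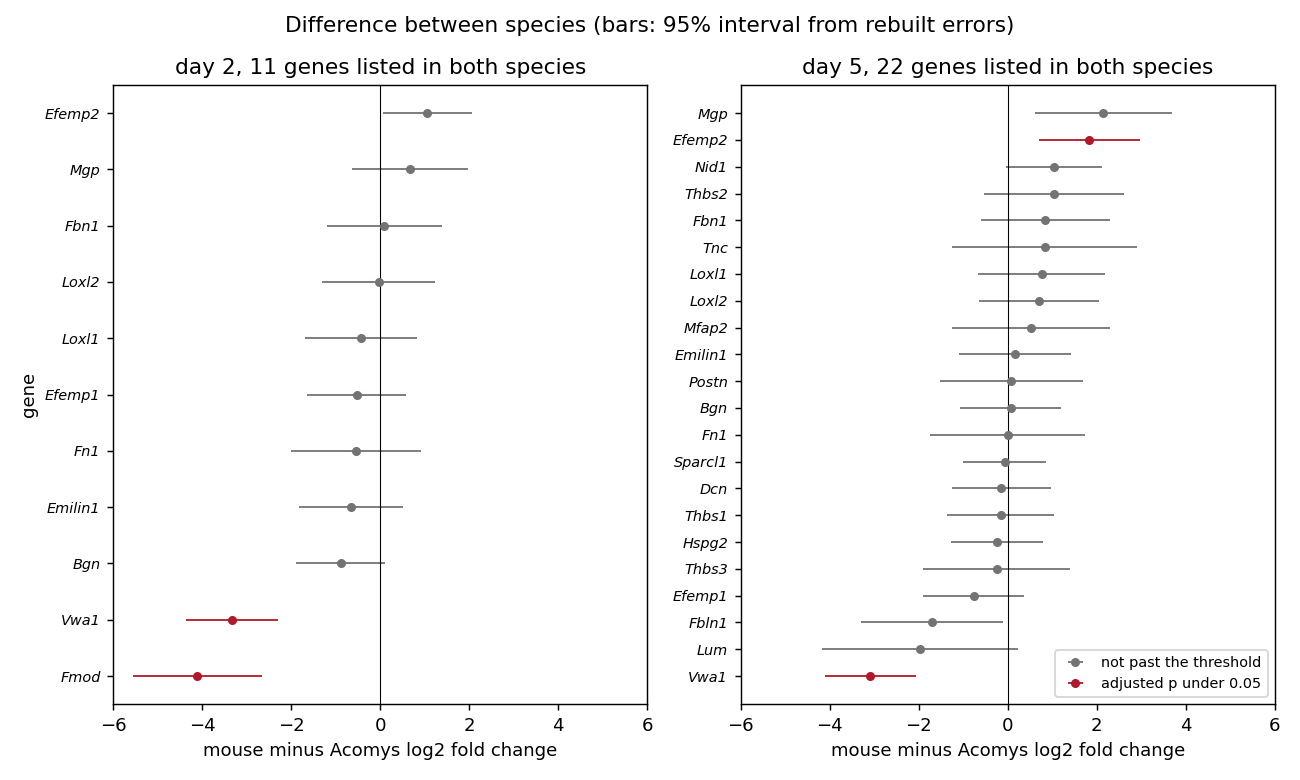
Mouse minus Acomys difference of the log2 fold change (points, with 95% intervals from the rebuilt errors) for the genes listed in both species, 11 on day 2 and 22 on day 5; red marks an adjusted p under 0.05. Fmod (-4.11) and Vwa1 (-3.33 and -3.08) lie far to the Acomys side, Efemp2 (1.83) on day 5 to the mouse side, and of the other intervals those of Efemp2 on day 2 and of Mgp and Fbln1 on day 5 do not cross 0.

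Related matrix genes were counted beside the set. Of 63 related matrix genes outside the set, 18 rose and 2 fell on mouse day 2, and 25 rose and 2 fell on mouse day 5. On the Acomys days 8 and 10 rose, with 0 fallen. Over all protein-coding genes 9.79%, 13.9%, 4.9% and 5.61% rose in that order, and in the set 43.8%, 70.8%, 43.8% and 54.2%. Among the related genes the risen shares were 28.6%, 39.7%, 12.7% and 15.9%. In the authors' deposited tables of mouse the highest were the hyaluronan synthase gene Has2 (7.66 on day 2, 7.67 on day 5), the hyaluronan receptor gene Cd44 (4.44 and 6.38), Has1 (3.67 on day 2) and Ltbp2 (5.20 on day 5), a microfibril-associated protein. The lowest in the authors' deposited tables of mouse were Xylt1 (-1.38 and -1.76), which starts glycosaminoglycan chains, Podn (-0.95 and -0.80), then Cspg4 (1.06) on day 2 and Tgm2 (0.87) on day 5. In Acomys the highest in the authors' deposited tables were Cthrc1 (2.55 and 3.33), Tgfbi (2.40 and 2.55) and Cd44 (1.85 and 2.51), and the lowest were Sdc3 (1.06 and 1.27), Fstl1 (1.18 and 1.23), Tgm2 (1.08 on day 2) and Vwf (1.21 on day 5). Has1 and Has2 were not listed in Acomys. Their mean logCPM in mouse was -0.99 and -0.58, and that of Cthrc1 in Acomys was -0.20, so these folds rest on very low levels.

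Marker lists of cell types differed in direction and in how many of their genes were listed. Of 6 fibroblast and pericyte markers 4 rose on mouse day 2, 6 on mouse day 5 and 3 on each Acomys day, with Pdgfrb at 1.20, 2.12, 1.24 and 1.35 in that order in the authors' deposited tables. The Acomys ones were Pdgfrb and the collagen genes Col1a1 and Col3a1, which are matrix genes themselves. Pdgfra, Thy1 and Dpt were not listed in Acomys. Of 5 smooth muscle and myofibroblast markers 3 rose in each comparison (Acta2, Tagln and Des), and of 6 macrophage markers 5, 5, 5 and 6 rose. All 6 proximal tubule markers fell on both mouse days, Lrp2 by 1.60 and 2.05 in the authors' deposited tables, and 0 of 6 were listed in Acomys. Of 5 urothelial markers Krt5 rose in all 4 comparisons while Upk1a and Upk3a fell on mouse day 2 (-1.72 and -1.84) and Upk3a rose on Acomys day 2 (1.36) in the authors' deposited tables. T cell markers rose in 1 and 4 of 5 cases in mouse and 1 of 5 on each Acomys day, and of 5 podocyte markers only Synpo was listed, on mouse day 5. Levels of the markers in each group were not used here, and their part in the matrix results was not tested.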

How the data were processed

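Salmon, edgeR and the build mm9 are named in the submitters' processing notes, for samples of both species. The sources used here do not state versions, filters, the reference used for Acomys or library totals. The authors deposited log2 fold changes (the base is the one edgeR writes and is not stated in the tables) and a mean log2 CPM, which was identical on both days for each gene of the set listed on both. The FDR in each deposited table is an adjusted p-value, and every entry is under 0.05; the direction comes from the table names. Replicates are numbered in the labels, which do not state that each library is a separate animal, so p-values measure the spread between these libraries.

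No gene was refitted. Members and lists were chosen with earlier results of these data known. Genes were matched by symbol with pandas 2.3.3; any of the 48 may be named, with the 3 highest and 3 lowest related genes per table and any listed marker. The shares of all protein-coding genes use RefSeq GRCm38.p6, matched by Entrez ID. For the species difference, an error was rebuilt as the fold change over the z value of p, where p is the FDR multiplied by its rank and divided by 10000, the number of tests assumed. Differences were then tested against a normal distribution, two-sided, and p-values adjusted by Benjamini-Hochberg (SciPy 1.17.1). Intervals are at 95%.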

Additional observations from a re-analysis of the deposited data

Results flagged for a closer look

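The difference between species passed its test for 3 genes of the set. On day 2 the mouse minus Acomys difference in log2 fold change was -4.11 for Fmod and -3.33 for Vwa1, and on day 5 it was 1.83 for Efemp2 and -3.08 for Vwa1. Among the related genes outside the set the hyaluronan receptor gene Cd44 also passed on day 5, with a difference of 3.87 (SE 1.09, adjusted p = 0.00985). Each rests on 3 libraries a group in each species and on errors rebuilt from the FDR. For Fmod and Vwa1 the opposite directions of listing made a pass likely from the start. Fmod was at low mean expression in Acomys (logCPM 1.44), and each Acomys value comes from 1 locus that the authors gave the mouse symbol.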

How the results depend on the processing

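Counts of listed members moved by less than 1.5 times with an FDR under 0.01 (21, 33, 16 and 19 listed on mouse days 2 and 5 and Acomys days 2 and 5), a minimum log2 change of 1 (25, 35, 21 and 26) and matching by Entrez ID. Taking the locus with the lowest FDR could change nothing, since 0 symbols had several loci in any table. Of the related matrix genes on Acomys day 2, 8 were listed and 3 were left at an FDR under 0.01. The number of members whose species difference passed was 2 on each day with 5000, 10000 or 20000 assumed tests. With errors rebuilt by a t value at 12 degrees of freedom it was 4 on day 2 and 6 on day 5. That setting narrows every error, still tests the difference as normal, and passed 19.2% and 20.0% of all symbols, so it is lenient. The genes it added were Efemp2 (adjusted p = 0.0036) and Bgn (0.0168) on day 2 and Fbln1 (0.000809), Lum (0.0231), Nid1 (0.0213) and Mgp (0.000116) on day 5. Directions were fixed by the authors' fold changes, which no setting altered. No paired analysis was possible because the results come from the authors' tables, without values per library; for the same reason no library could be left out. Depth is unknown. At the expression of members unlisted on day 2 but listed on day 5, the smallest listed rise ran from 0.74 to 1.05 in mouse and from 0.95 to 1.28 in Acomys.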

Other observations

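Genes of hyaluronan, the large sugar polymer that versican and link proteins bind, differed from versican in the listing. They were chosen after their values were seen. In the authors' deposited tables Has2, a hyaluronan synthase gene, stood at 7.66 and 7.67 on the mouse days and Has1 at 3.67 and 3.93, with neither listed in Acomys, whereas Vcan was listed in Acomys and not in mouse. The mean logCPM in mouse was -0.58 for Has2 and -0.99 for Has1, so sham levels were near 0 and the size of these folds is poorly defined. The receptor gene Cd44 rose in both species, and on day 2 its difference of 2.58 did not pass the test (SE 0.87, adjusted p = 0.0575). For the synthases and Vcan the difference between species was not tested, for want of a value in 1 species.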
